A study of Mus musculus with 12 samples.

Results

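Sulfation in mouse liver was followed through 9 genes, 8 cytosolic sulfotransferases (Sult1a1, Sult1b1, Sult1c2, Sult1d1, Sult2a1, Sult2a8, Sult3a1 and Sult5a1) and Papss2, which makes the sulfate donor. They were chosen by gene family, and their rows were found in the gene count table through the mouse symbols of its Ensembl identifiers. All 9 were among the 28036 genes of the table, and 7 of them passed the filter on low counts and were tested with 13988 genes in all. Sult2a1 and Sult3a1 did not pass it and are given as counts.

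Poly(A) RNA was sequenced from livers of C57BL/6J mice in a study of 12 weeks, with 3 libraries in each of 4 groups. The resmetirom livers came from mice with MASH brought on by a high-fat diet and then dosed with resmetirom by mouth at 3 mg/kg for 4 weeks. The EE livers came from mice on the same model that received 100 mg/kg of Eleutheroside E by mouth over those 4 weeks. MASH livers came from the same high-fat diet with 0.5% CMC-Na, the vehicle, in place of a compound, and control livers came from mice on normal chow that received this vehicle too. Dosing began after 8 weeks of model building. MASH is metabolic dysfunction-associated steatohepatitis, resmetirom is an agonist of the thyroid hormone receptor beta, and Eleutheroside E is a lignan glycoside of Eleutherococcus plants. Sex is not stated in the labels, nor whether the 3 replicates of a group are separate mice, so the p-values measure the spread between these libraries.

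Cytosolic sulfotransferases move a sulfo group from the donor PAPS (3'-phosphoadenosine 5'-phosphosulfate) onto phenols, steroids, amines and bile acids, which makes these compounds more soluble in water and easier to export. PAPS synthases such as Papss2 build the donor from inorganic sulfate and ATP, and the liver is a main site of the reaction. Members of the SULT1 family act mostly on phenols, including catecholamines and thyroid hormones, and members of the SULT2 family act on hydroxysteroids and bile acids. Several Sult genes are known to differ between male and female mouse liver and to respond to nuclear receptors.

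The libraries held 17297875 to 21793332 counts. Control 1 stood apart with 35.4% of its counts on mitochondrially encoded genes, against 2.40% to 4.38% in the other 11 libraries. Resmetirom 2 stood apart with 35.7% on major urinary protein (Mup) genes, against 3.33% to 16.0% in the others. Hepatocyte markers summed to 57986 to 93771 CPM in resmetirom livers, 105080 to 111350 CPM in EE livers, 78700 to 94552 CPM in MASH livers and 90807 to 161970 CPM in control livers, and kidney markers to at most 0.0513 CPM in any library. Resmetirom 1 had the lowest sum of pericentral hepatocyte markers, 1450 CPM, and the highest of Kupffer cell markers, 935 CPM, and of stellate cell markers, 641 CPM. Adipocyte markers, 4 of 6 in the table, summed to 0.871 to 1.81 CPM in resmetirom livers, 3.65 to 28.4 CPM in EE livers, 24.9 to 50.6 CPM in MASH livers and 6.43 to 10.96 CPM in control livers, and both that were tested were called lower in resmetirom than in MASH livers. Intestinal markers, 3 of 6 in the table, summed to 38.2 to 49.9 CPM in resmetirom, 37.4 to 66.7 CPM in EE, 103 to 108 CPM in MASH and 30.8 to 43.7 CPM in control livers, and the 1 tested, Fabp2, was called lower in resmetirom than in MASH livers. Pancreatic markers, 5 of 6 in the table, summed to 5.39, 90.2 and 45.1 CPM in resmetirom livers, 29.1 to 39.6 CPM in EE, 11.4 to 19.9 CPM in MASH and 12.6 to 20.0 CPM in control livers. The part of these markers in the results was not tested. CPM are counts relative to a library's total, here scaled by the trimmed mean of M values (TMM), and a gene is called at an adjusted p below 0.05 from edgeR.

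In the resmetirom livers 3 members stood apart. Sult5a1 and Papss2 were higher than in MASH livers, by 8.28-fold and 2.47-fold, and both passed the test. Sult1b1, a sulfotransferase of phenols and thyroid hormones, fell to 7.85 CPM in resmetirom livers, against 22.0 CPM in control livers, and this passed too. Sult1b1 missed the threshold against MASH livers (adjusted p = 0.0630), as did Papss2 against control livers (adjusted p = 0.133). Of 12 fits that left out 1 library each, the call was lost in 8 for Sult5a1 and 10 for Papss2 against MASH livers, and in 9 for Sult1b1 against control livers. In EE livers, against MASH livers, and in MASH livers, against control livers, edgeR called no member. Sult2a1 had counts above 0 in the resmetirom libraries and 0 counts in the other 9, and most of its counts lay in 1 library.

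The 300-base windows around the annotated starts of the 3 genes that passed a test are shown because these are the regions in which control of their transcription would usually be sought. They are RefSeq sequences of build GRCm38.p6, which is not the build of the counts, and run 5' to 3' on the gene's own strand. The Sult5a1 window is chr8:123158231-123158530 on the minus strand and the Sult1b1 window is chr5:87538146-87538445 on the minus strand. Sult1b1 has another start in the table, whose window, chr5:87536173-87536472 on the minus strand, is not shown. Papss2 has a pair of starts in the table, at chr19:32595465-32595764 and chr19:32619755-32620054 on the plus strand. Capitals mark the letters AGGTCA, the 6-base unit bound by nuclear receptors that include the thyroid hormone receptors, on either strand.
Sult5a1: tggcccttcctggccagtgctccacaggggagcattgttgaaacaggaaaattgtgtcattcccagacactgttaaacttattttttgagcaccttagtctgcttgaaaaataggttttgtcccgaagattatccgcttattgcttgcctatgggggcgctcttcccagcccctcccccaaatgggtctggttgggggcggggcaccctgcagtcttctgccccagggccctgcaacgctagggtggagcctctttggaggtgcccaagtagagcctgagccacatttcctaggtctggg
Sult1b1: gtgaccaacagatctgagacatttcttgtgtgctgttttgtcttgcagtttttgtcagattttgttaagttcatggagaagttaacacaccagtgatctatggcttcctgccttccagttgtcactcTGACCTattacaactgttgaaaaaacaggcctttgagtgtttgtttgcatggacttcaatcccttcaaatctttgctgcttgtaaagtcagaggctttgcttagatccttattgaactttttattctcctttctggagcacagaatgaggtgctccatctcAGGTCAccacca
Papss2 first start: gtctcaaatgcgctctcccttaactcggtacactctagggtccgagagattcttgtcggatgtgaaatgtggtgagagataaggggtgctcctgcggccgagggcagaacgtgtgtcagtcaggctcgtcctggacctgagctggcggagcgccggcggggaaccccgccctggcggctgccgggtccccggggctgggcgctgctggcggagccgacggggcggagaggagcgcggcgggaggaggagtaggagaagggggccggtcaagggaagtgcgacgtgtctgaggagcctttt
Papss2 second start: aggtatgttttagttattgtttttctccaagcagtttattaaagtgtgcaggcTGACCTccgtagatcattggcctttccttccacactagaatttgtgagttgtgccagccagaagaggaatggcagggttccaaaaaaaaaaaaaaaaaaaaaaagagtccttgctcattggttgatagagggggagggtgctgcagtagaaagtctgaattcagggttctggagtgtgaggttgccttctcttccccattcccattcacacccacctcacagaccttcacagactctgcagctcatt
The Sult1b1 window shown held 2 matches to AGGTCA, of which the first begins 123 bases before the start on the opposite strand, and its other window held 0 matches to each of the 4 motifs. The second Papss2 window held 1 match, beginning 197 bases before the start on the opposite strand, and the first held none. The Sult5a1 window held none. AGGTCA on either strand occurs in 16.3% of the 32851 windows of this length in the table. A direct repeat of AGGTCA with a gap of 4 bases, which overlaps the single unit by design, was in 0.0152% of all windows and one with a gap of 1 base in 0.0396%, and neither was in any window of a member. Letters of the STAT type, TTCNNNGAA, were in 8.3% of all windows and, among the members, in that of Sult3a1. Of the windows of Sult2a8 the first held 0 and the second 2 matches to AGGTCA, and the windows of Sult1a1, Sult1c2 and Sult1d1 held none of the 4 motifs. A match describes letters and was not tested as a binding site.

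Papss2 (ENSMUSG00000024899, chromosome 19) encodes the PAPS synthase regarded as the main one of liver, which supplies the sulfotransferases with their donor. It had 188, 249 and 292 CPM in resmetirom livers, 93.6, 131 and 137 CPM in EE livers, 76.0, 99.9 and 118 CPM in MASH livers, and 128, 170 and 157 CPM in control livers. All 3 resmetirom livers lay above every other liver, and the MASH livers lay below the control livers. Means were 243 ± 52.3 CPM in resmetirom, 120 ± 23.4 in EE, 98.1 ± 21.2 in MASH and 151 ± 21.7 in control livers (SD, n = 3 each). Against MASH livers the resmetirom livers were higher by 1.31 ± 0.25 (log2 fold change ± SE, adjusted p = 0.0435). Against control livers the difference was 0.68 ± 0.25 and missed the threshold (adjusted p = 0.133), although the groups did not overlap. MASH livers were lower than control livers by a log2 fold change of -0.63 ± 0.25 (unadjusted p = 0.0260, adjusted p = 0.520). EE livers overlapped both MASH livers (0.30 ± 0.25, adjusted p = 0.826) and control livers (-0.33 ± 0.25, adjusted p = 0.521). Within each same-numbered pair the EE liver was higher than the MASH liver (93.6 against 76.0, 131 against 99.9 and 137 against 118 CPM). A fit of these 6 libraries with the replicate block called Papss2 higher in EE livers (0.29 ± 0.07, adjusted p = 0.0258). That fit called 20.7% of all genes, and whether the replicate numbers pair these libraries is not known.

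The call of Papss2 between resmetirom and MASH livers was close to the threshold. In the 12 fits that left out 1 library each, the log2 fold change stayed between 1.15 and 1.46, and 2 of these fits passed, those without resmetirom 1 (adjusted p = 0.0245) and without control 1 (adjusted p = 0.0208). The call was lost without MASH 1, 2 or 3 (adjusted p = 0.205, 0.183 and 0.129), without EE 1, 2 or 3 (0.0662, 0.0771 and 0.0808), without resmetirom 2 or 3 (0.109 and 0.0692) and without control 2 or 3 (0.0611 and 0.0734).

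Sult5a1 (ENSMUSG00000000739, chromosome 8) is a sulfotransferase whose substrates are little known. Its values were 21.2, 55.0 and 18.7 CPM in resmetirom livers, 9.96, 13.5 and 7.73 CPM in EE livers, 2.08, 3.47 and 5.82 CPM in MASH livers, and 9.25, 5.20 and 1.88 CPM in control livers. The order of the groups was resmetirom, EE, control and MASH, every resmetirom liver lay above all others, and every EE liver lay above every MASH liver. EE and control livers overlapped, as did MASH and control livers. The deposited counts behind these values were 551, 734 and 365 in resmetirom, 194, 248 and 134 in EE, 44, 83 and 149 in MASH, and 92, 123 and 37 in control libraries.

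Sult5a1 averaged 31.6 ± 20.3 CPM in resmetirom livers, 10.4 ± 2.91 in EE livers, 3.79 ± 1.89 in MASH livers and 5.44 ± 3.69 in control livers (SD, n = 3 each). The resmetirom livers were higher than MASH livers by 3.05 ± 0.59 (log2, adjusted p = 0.0435) and higher than control livers by 2.57 ± 0.58 (adjusted p = 0.0398). Sult5a1 was also the 1 member called in the test of any difference among the 4 groups (adjusted p = 0.0440), where 1.6% of all tested genes were called. EE livers exceeded MASH livers by 1.45 ± 0.57 with an unadjusted p of 0.0253, which did not pass over all genes (adjusted p = 0.625). The differences between EE and control livers (0.97 ± 0.57, adjusted p = 0.413) and between MASH and control livers (-0.48 ± 0.57, adjusted p = 0.815) did not pass, and the second turned to 0.10 without control 1.

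The highest Sult5a1 value, 55.0 CPM, belonged to resmetirom 2, the library with 35.7% of counts on Mup genes. Without that library the log2 fold change against MASH livers was 2.38 (adjusted p = 0.124), and against control livers it was 1.91 (adjusted p = 0.0896). The call against MASH livers was also lost without MASH 1, 2 or 3 (adjusted p = 0.190, 0.194 and 0.129), without EE 1, 2 or 3 (0.0787, 0.0747 and 0.0803) and without control 2 (0.0611). The call against control livers was also lost without MASH 1, 2 or 3 (0.0530, 0.0677 and 0.0517), without EE 1, 2 or 3 (0.0632, 0.0609 and 0.0636) and without control 2 or 3 (0.0933 and 0.0856). Direction held in all of these fits, and without MASH 3 the log2 fold change against MASH livers was 3.50.

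**Figure D1:**
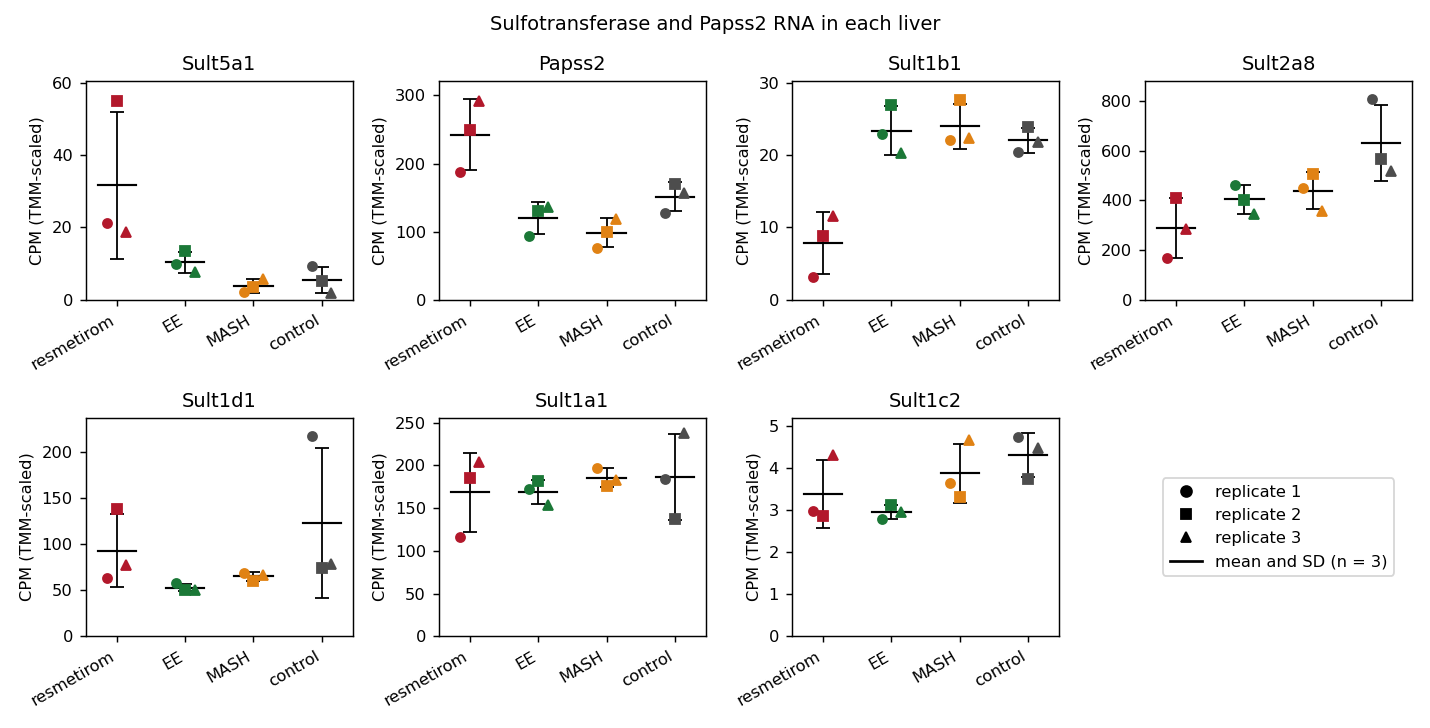
CPM of the 7 tested genes in each liver, scaled by TMM, by group from resmetirom to control, with the horizontal line at the mean and the bar at 1 SD (n = 3). Sult5a1 and Papss2 lay highest in the 3 resmetirom livers and Sult1b1 lowest in them, while control 1 set the high end of Sult1d1 at 217 CPM.

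Sult1b1 (ENSMUSG00000029269, chromosome 5) sulfates phenols and thyroid hormones. It had 3.20, 8.77 and 11.6 CPM in resmetirom livers, 23.0, 27.0 and 20.3 CPM in EE livers, 22.1, 27.6 and 22.3 CPM in MASH livers, and 20.5, 23.8 and 21.8 CPM in control livers. The other 9 livers lay between 20.3 and 27.6 CPM, and all 3 resmetirom livers lay far below them. Means were 7.85 ± 4.27 CPM in resmetirom, 23.4 ± 3.37 in EE, 24.0 ± 3.11 in MASH and 22.0 ± 1.69 in control livers (SD, n = 3 each). Sult1b1 fell 2.82-fold in resmetirom livers against control livers (SE of the log2 fold change 0.35, adjusted p = 0.0438). Against MASH livers the log2 fold change was -1.62 ± 0.35, and the adjusted p of 0.0630 missed the threshold. DESeq2 and limma voom called it there (adjusted p = 0.00164 and 0.0419). EE against MASH livers (-0.04 ± 0.34, adjusted p = 0.986), EE against control livers (0.09 ± 0.34, adjusted p = 0.921) and MASH against control livers (0.12 ± 0.34, adjusted p = 0.925) overlapped, and none of these differences passed.

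The lowest Sult1b1 value belonged to resmetirom 1, and without it the log2 fold change was -1.11 against control livers (adjusted p = 0.0276) and -1.24 against MASH livers (adjusted p = 0.0282). The call against control livers was lost without MASH 1, 2 or 3 (adjusted p = 0.0730, 0.0703 and 0.0704), without EE 1, 2 or 3 (0.0704, 0.0694 and 0.0713), without resmetirom 2 (0.0734) and without control 2 or 3 (0.0917 and 0.0885). Against MASH livers it passed without resmetirom 3 (0.0275) or control 1 (0.0378). Pericentral hepatocyte markers summed to 1450, 7011 and 6805 CPM in resmetirom livers and 10733 to 14268 CPM in EE livers. Their sum was 8687 to 11706 CPM in MASH livers and 6359 to 9652 CPM in control livers. Resmetirom 1 was lowest both in this sum and in Sult1b1. Control 1 had a sum of 6359 CPM and 20.5 CPM of Sult1b1. Resmetirom 2 and 3 had sums of 7011 and 6805 CPM, with 8.77 and 11.6 CPM of Sult1b1. None of the 9 markers was at 0 in every liver, and their part in the Sult1b1, Sult5a1 and Papss2 results was not tested. In bulk liver, fewer cells of a type and less RNA per cell cannot be told apart.

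The other SULT1 genes showed smaller differences. Sult1a1 (ENSMUSG00000030711, chromosome 7), the general phenol sulfotransferase, had 116, 185 and 204 CPM in resmetirom livers, 173, 181 and 153 CPM in EE livers, 197, 176 and 183 CPM in MASH livers, and 184, 137 and 237 CPM in control livers. All groups overlapped, every log2 fold change lay between -0.14 and 0.00 with an SE of 0.25, and the adjusted p over the 4 groups was 0.935. In the GRCm38 annotation 61 of its 1507 exon bases are shared with Sgf29 on the other strand. Sgf29 had at most 308 counts in a library, and since the counting strand is not known the 2 genes cannot be told apart over those bases.

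Sult1d1 (ENSMUSG00000029273, chromosome 5), known in mouse for sulfating catecholamines, had 63.6, 138 and 77.2 CPM in resmetirom livers, 57.6, 50.4 and 50.4 CPM in EE livers, 68.5, 59.8 and 66.4 CPM in MASH livers, and 217, 73.7 and 78.7 CPM in control livers. The EE livers lay below all others, and the highest value belonged to control 1, the library rich in mitochondrial RNA. The log2 fold change was -1.22 ± 0.40 between EE and control livers (adjusted p = 0.182), -0.92 ± 0.39 between MASH and control livers (adjusted p = 0.534) and -0.30 ± 0.39 between EE and MASH livers (adjusted p = 0.893), and none passed. Without control 1 and resmetirom 2 the difference between EE and control livers was smaller, -0.53, and passed (adjusted p = 0.0437), in a setting that called 589 of 14192 genes, against 14 of 13988 with all libraries. A fit of the 6 EE and MASH libraries with the replicate block called Sult1d1 lower in EE livers (-0.31 ± 0.07, adjusted p = 0.0230). That fit called 20.7% of all genes, and whether the replicate numbers pair these libraries is not known. Resmetirom livers overlapped MASH livers (0.51 ± 0.39, adjusted p = 0.561) and control livers (-0.41 ± 0.39, adjusted p = 0.576), and the second turned to 0.28 without control 1.

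Sult1c2 (ENSMUSG00000023122, chromosome 17), another phenol sulfotransferase, was low throughout, at 2.97, 2.85 and 4.31 CPM in resmetirom livers, 2.77, 3.10 and 2.94 CPM in EE livers, 3.64, 3.30 and 4.65 CPM in MASH livers, and 4.72, 3.72 and 4.47 CPM in control livers. The EE livers lay below the MASH livers and below the control livers. Neither difference passed, at -0.39 ± 0.26 (adjusted p = 0.785) and -0.54 ± 0.26 (adjusted p = 0.324).

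Sult2a8 (ENSMUSG00000030378, chromosome 7), a bile acid sulfotransferase of mouse liver, was the highest member per length, at a mean over the 12 livers of 134 CPM per kilobase of exon. Next came Sult1a1 at 118, Papss2 at 41.2, Sult1d1 at 33.9, Sult1b1 at 6.95, Sult5a1 at 2.90 and Sult1c2 at 1.96 CPM per kilobase. This order is that of the means over 12 livers, and within the resmetirom livers Sult1a1 (112) exceeded Sult2a8 (87.8) and Sult5a1 (7.16) exceeded Sult1b1 (2.82) in mean CPM per kilobase. Sult2a8 had 169, 409 and 286 CPM in resmetirom livers, 463, 402 and 346 CPM in EE livers, 452, 507 and 358 CPM in MASH livers, and 807, 568 and 519 CPM in control livers. Every control liver lay above every liver of the other 3 groups. The log2 fold change against control livers was -1.13 ± 0.32 in resmetirom (adjusted p = 0.0704), -0.64 ± 0.31 in EE (adjusted p = 0.335) and -0.52 ± 0.31 in MASH livers (adjusted p = 0.636), and none passed with edgeR. DESeq2 called the first (adjusted p = 0.0104), and edgeR called it without resmetirom 2 (-1.47, adjusted p = 0.0480). Against MASH livers, resmetirom livers (-0.61 ± 0.31, adjusted p = 0.385) and EE livers (-0.12 ± 0.31, adjusted p = 0.951) overlapped them.

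Among the 14 cytosolic sulfotransferases in the table, Sult2a8 made up 28.7%, 37.9% and 32.8% of the summed CPM per kilobase in resmetirom livers, 48.3%, 44.0% and 44.1% in EE livers, 44.7%, 49.9% and 40.4% in MASH livers, and 52.4%, 56.5% and 44.0% in control livers. The share was lower in all 3 resmetirom livers than in any other liver, and as a quotient of the same counts it was not tested. Sult1a1 made up 42.9%, 37.4% and 51.0% in resmetirom livers, 39.2%, 43.2% and 42.6% in EE livers, 42.5%, 37.8% and 45.0% in MASH livers, and 26.0%, 29.7% and 43.8% in control livers, and the groups overlapped. The sum itself was 179 to 329 CPM per kilobase in resmetirom livers, 239 to 292 in EE livers, 270 to 309 in MASH livers and 306 to 469 in control livers.

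Sult2a1 (ENSMUSG00000078798, chromosome 7), a sulfotransferase of hydroxysteroids and bile acids that is known to be higher in female than in male mouse liver, had deposited counts of 223.97, 5 and 5 in resmetirom libraries. It had 0 counts in each EE, MASH and control library, where 3 counts would be 0.117 to 0.301 CPM. These counts are 8.63, 0.375 and 0.256 CPM in the resmetirom libraries. With the other group set at a floor of 3 counts, the pooled resmetirom CPM was 93.7-fold that of MASH livers. It was 73.2-fold that of EE livers and 70.7-fold that of control livers. Most of the pooled counts came from resmetirom 1. Without resmetirom 1 the ratios were 7.17-fold, 5.6-fold and 5.41-fold, from 10 counts. These ratios leave out counting error in the resmetirom libraries and the spread between livers. Where another filter admitted Sult2a1, edgeR did not call it. Against MASH livers the adjusted p was 0.753 with no filter and 0.197 with a mean of at least 1 CPM. Against control livers it was 0.559 and 0.126.

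Closely related genes were also high in the library that was high in Sult2a1. Sult2a2 had deposited counts of 157.89, 0 and 2 in resmetirom, 3, 0 and 0 in EE, 0 in every MASH and 0, 0 and 2 in control libraries. Sult2a5 had 14.14, 0 and 0 in resmetirom libraries and 0 in all others. Over 739 aligned bases the Sult2a1 and Sult2a2 transcripts are 97.6% identical, and Sult2a1 and Sult2a5 are 94.6% identical over 1020, so the split of counts between these 3 genes is uncertain. Sult2a1 and Sult2a8 are 68.7% identical. Sult2a1 shares no exact stretch of 150 bases, the read length, with Sult2a8, and none with Sult2a5 either. Of its 150-base stretches 6.31% occur in Sult2a2, so this measure alone does not set Sult2a8 apart. In resmetirom 1 the hepatocyte marker sum, 57986 CPM, was the lowest of all 12 libraries, and its Kupffer and stellate sums were the highest, and their part in the Sult2a counts was not tested.

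Sult3a1 (ENSMUSG00000069668, chromosome 10), which sulfates amines and is also known as female-high in mouse liver, had 0 counts in every resmetirom library, 1, 0 and 0 in EE, 1, 0 and 1 in MASH, and 0, 2 and 0 in control libraries. All groups were at or under the floor of 3 counts, and no difference was detectable at this depth. Sult1e1, the estrogen sulfotransferase, had 6, 125 and 3 counts in resmetirom libraries, 2, 4 and 0 in EE, 2, 4 and 2 in MASH, and 4, 2 and 1 in control libraries. Its 1 high value lay in resmetirom 2, not in the library that was high in Sult2a1. Sult2a7, the 1 other sulfotransferase that was tested, had 0, 5 and 10 counts in resmetirom libraries, 21, 6 and 12 in EE, 29, 32 and 20 in MASH, and 6, 16 and 23 in control libraries. It was not called over the 4 groups (adjusted p = 0.412). In resmetirom livers its log2 fold change was -2.03 against MASH and -1.54 against control livers, and neither was called. Neither pair of groups overlapped in CPM, and 12.3% and 10.9% of all genes lay lower without overlap in these comparisons. Sult2b1 and Sult4a1 had at most 3 counts in any library.

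**Figure D2:**
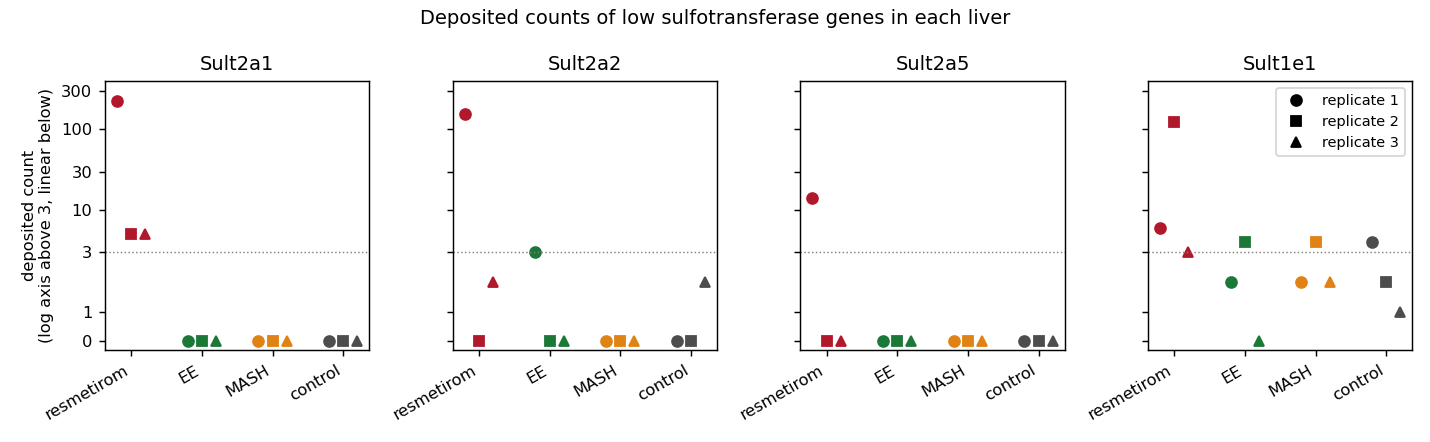
Deposited counts of Sult2a1, Sult2a2, Sult2a5 and Sult1e1 in each liver, on an axis that is logarithmic above 3 counts (dotted line) and linear below. Resmetirom 1 held 223.97 Sult2a1, 157.89 Sult2a2 and 14.14 Sult2a5 counts, and resmetirom 2 held 125 Sult1e1 counts.

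Counted over the members, resmetirom livers against MASH livers gave 2 calls of 7 tested, both higher, where 0.665% of all tested genes were called and 0.336% were called higher and 0.329% lower. The groups did not overlap for 3 of 7 members (Sult5a1 and Papss2 higher, Sult1b1 lower), against 23.9% of all genes (11.6% higher, 12.3% lower). The median log2 fold change of the 7 was -0.14, and that of all tested genes was 0.06. Against control livers, resmetirom livers gave 1 higher call (Sult5a1) and 1 lower call (Sult1b1) where 3.16% of all genes were called (1.41% higher, 1.75% lower). Groups did not overlap for 4 of 7 members (Sult5a1 and Papss2 higher, Sult1b1 and Sult2a8 lower), against 20.8% of all genes (9.93% higher, 10.9% lower). The median was -0.34 for the members and 0.02 for all genes. These comparisons share the resmetirom livers and are not independent of each other.

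EE livers against MASH livers gave 0 calls of 7 with edgeR, DESeq2 and limma voom, and 1 member (Sult5a1) had an unadjusted p below 0.05. Of all genes 0.00715% were called, and 7.5% had such an unadjusted p. The groups did not overlap for 3 of 7 members (Sult5a1 higher, Sult1d1 and Sult1c2 lower), against 32.3% of all genes (16.7% higher, 15.5% lower), and the median log2 fold change was -0.12, with -0.02 for all genes. In a fit of these 6 libraries alone with the replicate number as a block, 2 members were called, Sult1d1 lower and Papss2 higher. That fit called 2746 of 13248 genes, and whether the numbers pair these libraries is not known. The same libraries without the block gave 745 calls and no member, and the block in the fit of all 12 libraries gave no member either. EE livers against control livers gave 0 calls of 7 with edgeR and with both other tools, where 0.1% of all genes were called with edgeR, and 1 member (Sult1d1) had an unadjusted p below 0.05, as 16.1% of all genes did. Groups did not overlap for 3 of 7 members, all lower in EE (Sult2a8, Sult1d1 and Sult1c2), against 27.1% of all genes (13.7% higher, 13.5% lower), and the median was -0.33, with -0.06 for all genes.

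MASH livers against control livers gave 0 calls of 7 with edgeR, DESeq2 and limma voom, where edgeR called 0.0143% of all genes. Papss2 and Sult1d1, 2 members in all, had an unadjusted p below 0.05, as 9.23% of all genes did. Groups did not overlap for 3 of 7 members, all lower in MASH livers (Papss2, Sult2a8 and Sult1d1), against 19.7% of all genes (10.2% higher, 9.41% lower). The median was -0.48, with -0.02 for all genes. Resmetirom at 3 mg/kg and EE at 100 mg/kg share the MASH and control livers as comparators, and their values stand side by side without a test between them.

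**Figure D3:**
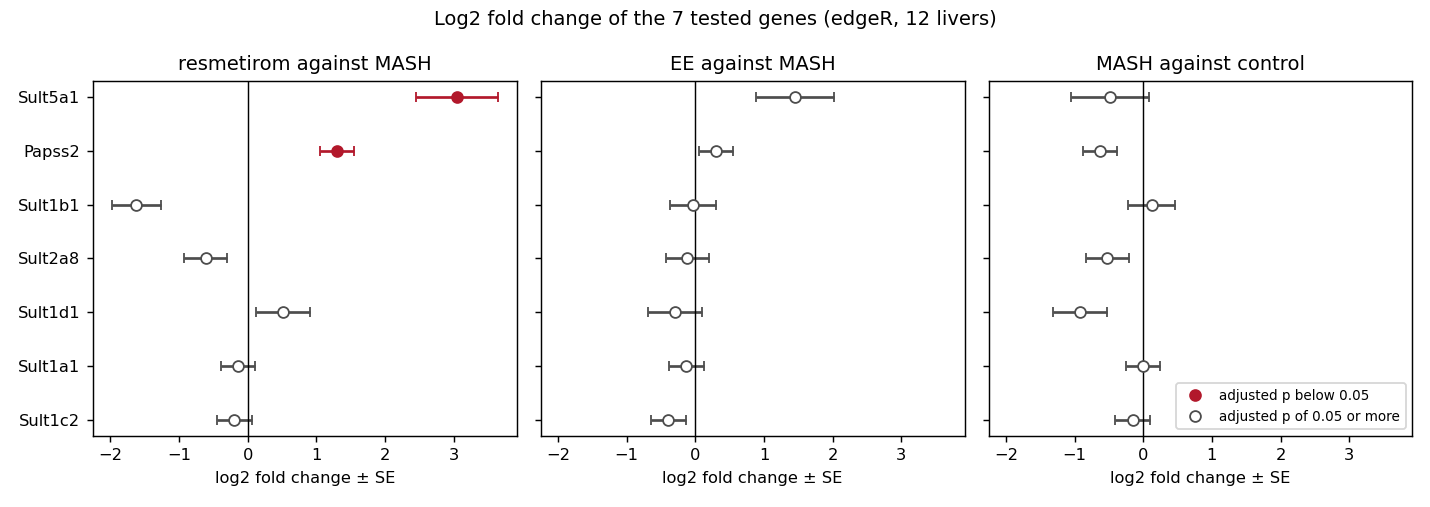
Log2 fold change with its SE for the 7 tested genes in 3 comparisons, filled where the adjusted p was below 0.05. Filled points are Sult5a1 (3.05) and Papss2 (1.31) for resmetirom against MASH livers, and no point is filled for EE against MASH or for MASH against control livers.

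**Figure D4:**
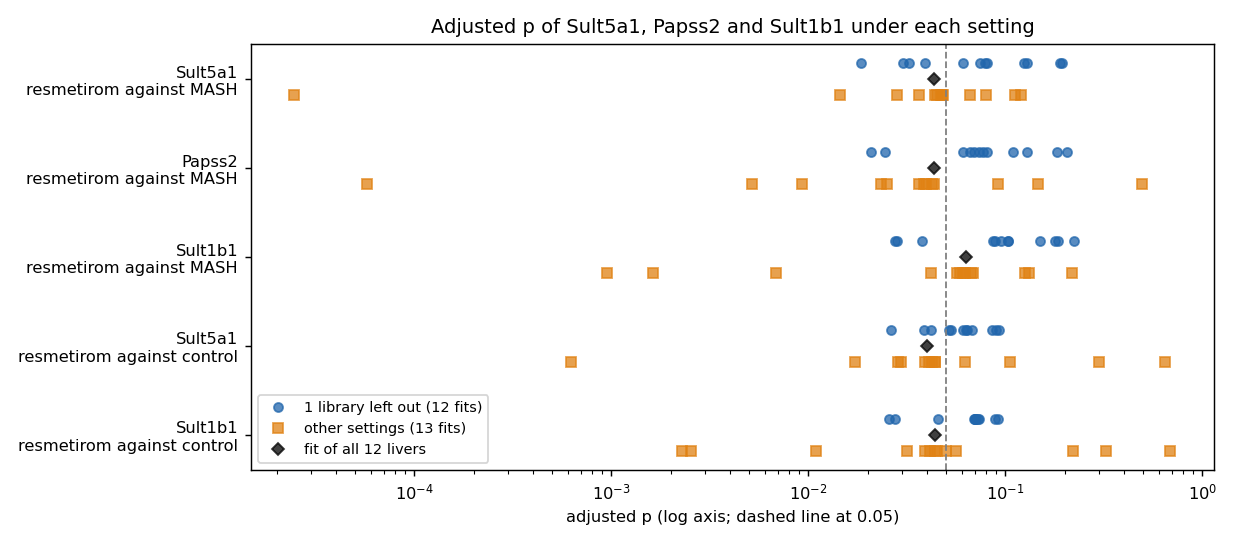
Adjusted p on a logarithmic axis for 5 gene and comparison pairs in the fit of all 12 livers (diamond), in the 12 fits without 1 library (circles) and in 13 other settings (squares), with the threshold of 0.05 dashed. For each pair the points lie on both sides of the line, and Sult5a1 against MASH livers passed in 13 of 25 settings.

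Other steps of sulfur handling were described through lists. Of 11 tested genes for making, moving and removing PAPS, 1 was called in resmetirom against MASH livers, where 0.665% of all genes were, and that was Papss2 itself. The list's median log2 fold change was 0.13, with 0.06 for all genes. Papss1, the other PAPS synthase, chosen after its values were seen, averaged 14.9 CPM in resmetirom livers and 13.6 CPM in MASH livers (adjusted p = 0.837). A list of 17 genes covered methionine, cysteine and their products, sulfite and sulfate among them. Of these, 1 was called in resmetirom against control livers, where 3.16% of all genes were. Cth, the cystathionine gamma-lyase that makes cysteine, had 141, 196 and 150 CPM in resmetirom livers, 196, 214 and 219 CPM in EE livers, 224, 172 and 180 CPM in MASH livers, and 258, 402 and 430 CPM in control livers, and fell by 1.16 on the log2 scale in resmetirom against control livers (adjusted p = 0.0290). Resmetirom livers overlapped MASH livers, and the log2 fold change against control livers was -0.79 in EE (adjusted p = 0.161) and -0.92 in MASH livers (adjusted p = 0.409), which did not pass. It lost the call in 7 of the 12 fits without 1 library (MASH 2, EE 2 or 3, resmetirom 1 or 3, control 2 or 3), with adjusted p up to 0.0830. The list's median there was -0.12, with 0.02 for all genes.

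Golgi sulfotransferases sulfate glycans, glycolipids or protein tyrosines in place of small molecules. Of 15 tested, edgeR called none in the test over the 4 groups, 1 had an unadjusted p below 0.05, and DESeq2 called 1 and limma voom 0. Of all genes 19.2% had an unadjusted p below 0.05 over the 4 groups. The Golgi sulfotransferases of lowest p were Gal3st1 (adjusted p = 0.137), Chst14 (0.283) and Ust (0.500). Of 11 sulfatases, which take sulfate off again, 1 was called in resmetirom against control livers, where 3.16% of all genes were: Arsg, a lysosomal sulfatase, had 29.3, 18.5 and 25.0 CPM in resmetirom livers and 12.8, 9.30 and 12.9 CPM in control livers, and rose by 1.06 on the log2 scale (adjusted p = 0.0275). MASH livers, at 31.1, 24.7 and 25.1 CPM, overlapped the resmetirom livers. The Arsg call was lost in 6 fits (without MASH 2, EE 2 or 3, resmetirom 3, control 2 or 3), with adjusted p up to 0.0817.

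Among 23 tested receptors and factors known to act on Sult genes, Stat5a and Rora were called in resmetirom against control livers, where 3.16% of all genes were called and the list's median was -0.27, with 0.02 for all genes. Stat5a, which carries growth hormone signals, had 23.7, 27.9 and 29.8 CPM in resmetirom livers and 9.15, 8.50 and 7.66 CPM in control livers. It rose by 1.69 on the log2 scale (adjusted p = 0.0115), and passed in all 12 fits without 1 library. MASH livers, at 16.3, 11.6 and 14.6 CPM of Stat5a, also lay above every control liver, and EE livers, at 14.9, 7.30 and 12.8 CPM, overlapped them. Rora, a nuclear receptor, had 24.7, 11.8 and 19.6 CPM in resmetirom livers and 43.2, 38.9 and 40.0 CPM in control livers. The fall by 1.12 (log2, adjusted p = 0.0446) passed in 1 of the 12 fits without 1 library, that without resmetirom 1. In the others the adjusted p was up to 0.0909. MASH livers, at 25.6 to 37.6 CPM of Rora, and EE livers, at 14.7 to 21.8 CPM, also lay below every control liver. EE livers overlapped resmetirom livers, and every MASH liver lay above every resmetirom liver. In resmetirom against MASH livers edgeR and limma voom called 0 of the 23 and DESeq2 3, and 9 had an unadjusted p below 0.05. Of all genes, 15% had such an unadjusted p and DESeq2 called 4.7%.

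Of 21 tested partners of sulfation in bile acid detoxification and export, 2 were called in resmetirom against MASH livers and 4 against control livers, where 0.665% and 3.16% of all genes were called. Abcc3, which exports conjugated bile acids to blood, had 31.8, 4.50 and 19.4 CPM in resmetirom livers, 246, 254 and 367 CPM in MASH livers and 120, 272 and 281 CPM in control livers. It fell by 3.95 on the log2 scale against MASH livers (adjusted p = 0.0155, lost without MASH 1, 2 or 3 with up to 0.0776) and by 3.59 against control livers (adjusted p = 0.0138, passed in all 12 fits). Without resmetirom 1 these falls were larger, -4.58 and -4.22. Ugt2b37, a glucuronosyltransferase, had 14.6, 41.1 and 5.79 CPM in resmetirom livers, 0.993, 2.05 and 1.64 CPM in MASH livers and 0.201, 1.18 and 0.761 CPM in control livers. It rose by 3.70 against MASH livers (adjusted p = 0.0330, lost in 7 fits, without any MASH or EE library or without resmetirom 2, with up to 0.168) and by 4.70 against control livers (adjusted p = 0.0115, passed in all 12 fits). Without resmetirom 2, its highest library, these were 2.69 (adjusted p = 0.0851) and 3.71. Against control livers Ugt2b34 fell by 0.82 in resmetirom livers (240 against 425 CPM, adjusted p = 0.0375). MASH livers, at 352, 407 and 338 CPM of Ugt2b34, and EE livers, at 285, 287 and 315 CPM, also lay below every control liver. Cyp3a11, a cytochrome P450 that hydroxylates drugs and bile acids, had 946, 98.7 and 134 CPM in resmetirom livers, 314, 181 and 256 CPM in EE livers, 677, 350 and 369 CPM in MASH livers, and 2214, 4025 and 3955 CPM in control livers. It lay lower in every liver of the other 3 groups than in any control liver, and resmetirom 1 was the highest of those 9. The fall of 3.11 in resmetirom against control livers passed (adjusted p = 0.0458) and was -4.87 without resmetirom 1 (adjusted p = 0.00152), while EE (-3.76, adjusted p = 0.0833) and MASH livers (-2.87, adjusted p = 0.409) did not pass against control livers. The Ugt2b34 and Cyp3a11 calls each passed in 2 of the 12 fits, those without resmetirom 1 or control 1. Ugt2b and Cyp3a genes have near-identical neighbours, so their counts are uncertain. The median of the list was -0.24 against MASH and -0.42 against control livers, with 0.06 and 0.02 for all genes.

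Because several Sult genes differ between the sexes in mice, 2 lists of sex-biased liver genes were read beside them. Of 13 tested genes known as higher in females, Cyp2b9 was called lower in resmetirom livers, at 0.462, 0 and 0.974 CPM, against 39.0, 3.60 and 79.2 CPM in MASH livers (log2 fold change -6.30, adjusted p = 0.0392, passed in 2 of 12 fits, those without control 1 or 2). Of all genes 0.329% were called lower in that comparison. The log2 fold change of Cyp2b9 was -5.38 without MASH 3 and -7.14 without resmetirom 3. EE livers had 1.23, 0.218 and 1.27 CPM of it and control livers 0.603, 0 and 0.152 CPM. Cyp17a1, a steroid hydroxylase, had 68.3, 129 and 201 CPM in resmetirom livers and 2.31, 5.45 and 17.4 CPM in control livers. It rose by 3.96 against control livers (adjusted p = 0.0177, lost without control 2 at 0.0585, and 5.05 without control 3). MASH livers, at 29.6, 22.2 and 55.9 CPM, also lay above every control liver, and Cyp17a1 was not called in resmetirom against MASH livers. EE livers had 20.9, 11.05 and 25.1 CPM. Of 24 genes known as higher in males, C8a fell by 1.33 (203 against 512 CPM, adjusted p = 0.0188, lost without control 2 or 3 with up to 0.0600) and Keg1 fell by 1.39 (48.7 against 127 CPM, adjusted p = 0.0267, lost without EE 3, resmetirom 3, control 2 or 3 with up to 0.0756), both in resmetirom against control livers. In resmetirom against control livers 1.41% of all genes were called higher and 1.75% lower. The medians in that comparison were -0.35 for the female list and -0.26 for the male list, with 0.02 for all genes. In EE against MASH livers all 24 tested genes of the male list had a positive log2 fold change, 16 of them without overlap, with a median of 1.28, and 12 of 13 of the female list a negative one, with a median of -1.06, beside -0.02 for all genes. In MASH against control livers all 24 of the male list were negative, 3 without overlap, with a median of -0.59, and 8 of the 13 of the female list positive, with a median of 0.78, beside -0.02 for all genes. Of all genes 16.7% lay higher in EE than in MASH livers without overlap, and 9.41% lower in MASH than in control livers. In resmetirom against MASH livers the medians were 0.33 for the male and -0.18 for the female list. edgeR called 0 of these genes in EE against MASH livers (unadjusted p below 0.05 for 9 of the male and 4 of the female list, and 0 called by DESeq2 and voom) and 0 in MASH against control livers (unadjusted 2 and 3, with 0 and 1 called by DESeq2 and 0 by voom). Of all genes, 7.5% and 9.23% had an unadjusted p below 0.05 in these comparisons, and DESeq2 called 0.2% and 0.622%. The part of these sex-biased genes in the Sult values was not tested.

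The genes whose log2 CPM over the 12 livers was most like that of a member were named from 12240 genes, as a description that rests on libraries sharing their groups, depth and scaling. For Sult5a1 they were Nme4 (Pearson's r = 0.947, Spearman's rho = 0.888), H2-T23 (0.940 and 0.937) and Spns1 (0.936 and 0.923). For Papss2 they included Slc7a5 (0.911 and 0.853) and Zfp219 (0.891 and 0.916). For Sult1b1 they were Tpd52l1 (0.957 and 0.615), Slc15a5 (0.956 and 0.685) and Dhdh (0.948 and 0.748). Sult2a8 was most like Cfhr2 (0.958 and 0.972), Atg3 (0.957 and 0.944) and Eif4a2 (0.953 and 0.902). Sult1d1 was most like Clk3 (0.966 and 0.720), Ier2 (0.963 and 0.804) and Nab2 (0.956 and 0.874), Sult1c2 most like Nfrkb (0.919 and 0.937), and Sult1a1 most like Mn1 (0.862 and 0.776).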

How the data were processed

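Per the labels' protocols, RNA was extracted with TRIzol from 12 livers (4 groups of 3), and poly(A) libraries from a kit that keeps strand were read in pairs of 150 bases. The submitters' processing notes name fastp and the build GRCm39, without versions. What aligned and counted the reads, on which annotation and strand, is not given in the sources used here.

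Expected counts per Ensembl gene were deposited by the authors, not scaled between libraries, and of these 91.5% to 93.3% are whole in each column. All 12 columns were used, and counts were rounded to whole numbers for testing. Symbols, exon lengths and transcripts came from an annotation of GRCm38, which named 22603 of 28036 identifiers, and no gene coordinates were taken from it. Promoter windows came from RefSeq for all members but Sult2a1.

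The test was edgeR's robust quasi-likelihood F test (version 4.0.16, R 4.3.3) without a block after filterByExpr and TMM scaling, in 1 fit of 12 libraries with 8 residual degrees of freedom and a biological coefficient of variation of 0.334. P-values were adjusted by Benjamini-Hochberg over 13988 genes, and edgeR is meant wherever an adjusted p names no tool. The SE is the size of the log2 fold change divided by the square root of F. limma 3.58.1 (voom), DESeq2 1.42.0, other scalings, filters, sample choices and blocks were alternatives. The fits were tested on simulated data.

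Replicate numbers were checked by correlating the deviations of same-numbered libraries from their group means. For EE and MASH all 3 correlations exceeded 0.1 (0.190, 0.158 and 0.149). In the other 4 comparisons at least 1 correlation was below 0.1, and for resmetirom and control they ranged from -0.341 to 0.260. Differently numbered libraries were not compared, and the block was tested on the same counts. These values therefore do not show that the numbers pair libraries, and no label says what a number marks.

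The members, lists, tests and naming rule were chosen with earlier results of these data known. All 9 members are named, with the called genes of each list (otherwise up to 3 of lowest p over the 4 groups) and up to 3 genes most correlated with each tested member. A few genes that this rule would name are not reported here.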

Additional observations from a re-analysis of the deposited data

How the results depend on the processing

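The alternative without control 1 and resmetirom 1 was chosen after seeing the data. For resmetirom against MASH livers, where 2 members were called, 1 was called with no scaling beyond library totals and 1 with the replicate block, 0 with the compared groups alone, 0 with these and the replicate block, 3 with DESeq2 and 3 with voom (Sult1b1 gained), 4 without control 1 and resmetirom 1 (Sult1b1, Sult1d1, Sult5a1 and Papss2, in a setting that called 1978 of 14100 genes), and 0 to 3 with 1 library left out. With no filter the 2 calls were Papss2 (adjusted p = 0.00933) and Sult1b1 (0.000946), and Sult5a1 was lost (0.112). For resmetirom against control livers the 2 calls became 3 with DESeq2, 1 with no scaling, 0 with the compared groups alone, 0 with the replicate block, 0 with both, and 0 to 2 with 1 library left out. With no filter they were Sult1b1 (0.00253) and Sult2a8 (0.0404), and Sult5a1 was lost (0.106). What a replicate number marks is not known, and samples in these comparisons are known to share only a number. For EE against MASH livers the 0 calls became 2 in the compared groups with replicate block, and for EE against control livers the 0 calls became 1 (Sult1d1) without control 1 and resmetirom 2, where 589 of 14192 genes were called. The block changed no call of a member between EE and MASH livers in the fit of all 12 libraries. Over the 4 groups the 1 call became 2 with no filter, 2 with a mean of at least 1 CPM, 3 with DESeq2, 0 with limma voom, 2 without control 1 and resmetirom 2, 4 without control 1 and resmetirom 1, and 0 to 3 with 1 library left out. The causes were not tested, beyond the smaller number of samples in some of these fits. No member was called between MASH and control livers in any setting.

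Directions of called members held in all 25 settings, with log2 ranges against MASH livers of 2.38 to 3.50 for Sult5a1 and 1.07 to 1.46 for Papss2, and for Sult1b1 against control livers of -1.91 to -1.11. Sult5a1 passed there in 13 settings, Papss2 in 12 and Sult1b1 in 11. Sign changes were all in values that did not pass. Sult1a1 between MASH and control livers (-0.0037 as reported) was 0.38 with no scaling, 0.060 with no filter, 0.027 with voom, 0.030 and 0.015 with the replicate block in the compared groups and in all, 0.0001 with upper quartile scaling, and -0.18 to 0.22 with 1 library left out. Without control 1 and resmetirom 1 it turned to 0.065 for resmetirom against MASH and to 0.063 for resmetirom against control livers. With 1 library left out Sult1a1 ranged from -0.31 to 0.067 for resmetirom against MASH, from -0.32 to 0.076 for resmetirom against control and from -0.31 to 0.088 for EE against control livers. Between MASH and control livers with no scaling, Sult1c2 turned to 0.27 and Sult5a1 to 0.13. Sult5a1 there was 0.11 without control 1 and resmetirom 2, 0.10 without control 1 and resmetirom 1, and -0.93 to 0.10 with 1 library left out, where 0.10 is the value without control 1. With 1 library left out Sult1b1 ranged from -0.15 to 0.076 for EE against MASH and from -0.015 to 0.19 for EE against control livers. Papss2 turned to -0.0057 with no scaling (EE against MASH). For resmetirom against control livers Sult1d1 was 0.50 without control 1 and resmetirom 1, and -0.81 to 0.28 with 1 library left out. No scaling moved the median of all genes to 0.367 for MASH against control livers and to -0.322 for EE against MASH livers.

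Counts of all genes called between resmetirom and MASH livers were 93 with edgeR, 657 with DESeq2, 100 with voom, 247 with no filter, 38 with no scaling and 0 with the compared groups alone, and between resmetirom and control livers 442 with edgeR, 1553 with DESeq2, 354 with voom, 37 with no scaling and 5 with the compared groups alone. In the fits without 1 library of a group, the remaining pair is assumed to vary like the other groups. Depth limits Sult3a1, whose low counts allow values only. Sult2a1 was tested only where another filter admitted it, and it was not called there.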
